A study of Homo sapiens with 18 samples.

Results

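The genes described here encode the proteins of the cytosolic ribosome. They were taken by gene symbol: every row whose symbol is RPL or RPS followed by a number, with the suffixes A, X and L allowed, together with RPLP0, RPLP1, RPLP2 and RPSA. This gave 85 genes of the 60683 rows in each count table, 53 with large subunit symbols and 32 with small subunit symbols. The rule uses no measured value, although the set was chosen with earlier results of these data known. In each table, 83 of the 85 passed the filter on low counts, and the others were RPL10L and RPL39L.

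Each cytosolic ribosome carries a large and a small subunit, and, with few exceptions, every subunit protein is present once per particle. Their mRNAs are among the most abundant in growing cells. Most of them begin with a terminal oligopyrimidine (TOP) tract, a C followed by a run of C and U, through which mTOR signalling and the RNA-binding protein LARP1 set their translation and stability. Several members have a duplicated relative (a paralogue) with a restricted tissue pattern, and most have many processed pseudogenes, intronless copies whose sequence is close to that of the mRNA.

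Poly(A) RNA was sequenced from HCT-116, a human line established from a colorectal carcinoma, in 6 groups of 3 libraries and 2 count tables. The actin table comprised Actin KO cells that carry the empty construct, Actin KO cells stably expressing wild-type actin (ACTB-WT) and Actin KO cells stably expressing the H73A form (ACTB-mut), so all its groups carry the actin knockout. The SETD3 table held SETD3_CT control cells and 2 knockout lines, SETD3_KO1 and SETD3_KO2; SETD3 is the methyltransferase that modifies the actin histidine lost in H73A. The labels do not say whether replicates were separate cultures, so p-values measure the spread between these libraries. They do not say whether a line was a clone, and SETD3_KO2 replicate 3 carries the cell line label HCT-117.

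Total counts ran from 3389502 to 11652897 per library. Read counts of ACTB itself ran from 14.9 to 24.9 CPM (counts scaled to a common library total) for Actin KO, from 23.2 to 31.0 for ACTB-WT and from 32 to 47.1 for ACTB-mut, against 662 to 1460 in the SETD3 table, so the labelled re-expression did not appear as a return of ACTB reads to that level. SETD3 RNA was at 14.0 to 36.0 CPM in SETD3_CT, 6.34 to 17.1 in SETD3_KO1 and 15.6 to 27.7 in SETD3_KO2. The summed level of 12 colon epithelial markers was 8190 to 13400 CPM over the 6 groups, with CDX1 at 0 in all of them, while 8 fibroblast markers summed to at most 15.2 CPM and 8 blood markers to at most 13.4 CPM, with PTPRC and CD3E at 0 in every group.

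The sequences around the transcription start are shown for 9 of the members that the results below turn on, because the pyrimidine run at the start is a feature that many members share and others lack. RPL5 and RPL23, which had no listed start, and RPL32 and RPL37 are not shown. Each line holds 15 bases before the start and 25 from it, in the direction of the gene (RefSeq, GRCh38.p14), and the capitals mark an unbroken run of C and T that opens with C at the first transcribed base and spans at least 5 bases.
RPL31: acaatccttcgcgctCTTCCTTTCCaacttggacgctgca
RPS27: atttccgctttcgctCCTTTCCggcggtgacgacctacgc
RPLP0: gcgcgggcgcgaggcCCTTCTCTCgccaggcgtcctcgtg
RPL41: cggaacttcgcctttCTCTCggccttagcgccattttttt
RPL27: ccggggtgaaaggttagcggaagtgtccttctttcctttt
RPL35A: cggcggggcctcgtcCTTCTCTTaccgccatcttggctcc
RPL36A: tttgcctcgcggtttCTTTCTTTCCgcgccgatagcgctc
RPL37A: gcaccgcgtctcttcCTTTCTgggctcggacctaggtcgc
RPS4X: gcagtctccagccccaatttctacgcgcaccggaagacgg
These windows lie at chr2:101002274-101002313 (plus strand) for RPL31, chr1:153990747-153990786 (plus) for RPS27, chr12:120201087-120201126 (minus) for RPLP0, chr12:56116618-56116657 (plus) for RPL41 and chr17:42998404-42998443 (plus) for RPL27. The remaining 4 lie at chr3:197950175-197950214 (plus) for RPL35A, chrX:101390996-101391035 (plus) for RPL36A, chr2:216498829-216498868 (plus) for RPL37A and chrX:72277224-72277263 (minus) for RPS4X.

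The start table held 68 of the 85 members with 84 annotated starts, and 47 of those 84 starts (56.0%) opened with such a run on the strand of the gene, against 4.07% of all 35116 starts. Counted by gene, 47 of 68 members (69.1%) had at least 1 start of this kind, against 5.14% of the 27305 symbols in the table. RPL31 and RPL36A had the longest runs among those printed, 10 bases each. No run opened the annotated starts of RPL27 and RPS4X, which says only that these letters are not at the listed first base.

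Ribosomal protein genes held between 20.9% and 25.5% of all counts of a library. The Actin KO libraries held 24.7%, 23.8% and 22.9%, the ACTB-WT libraries 24.4%, 24.5% and 24.7%, and the ACTB-mut libraries 24.8%, 25.5% and 24.6%. It was 23.6%, 24.0% and 24.4% in SETD3_CT, 20.9%, 21.0% and 22.0% in SETD3_KO1 and 23.3%, 23.9% and 23.2% in SETD3_KO2. The 3 SETD3_KO1 libraries were the lowest of the 18, and their mean of 21.3% ± 0.61 (SD, n = 3) stood beside 24.0% ± 0.40 in SETD3_CT. The actin groups overlapped, except that Actin KO libraries 2 and 3 lay below all others of that table. A Wilson 95% interval of a single share was at most 0.09 percentage points wide, which covers counting error only. This is a summed score over the members and was given no test.

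**Figure D1:**
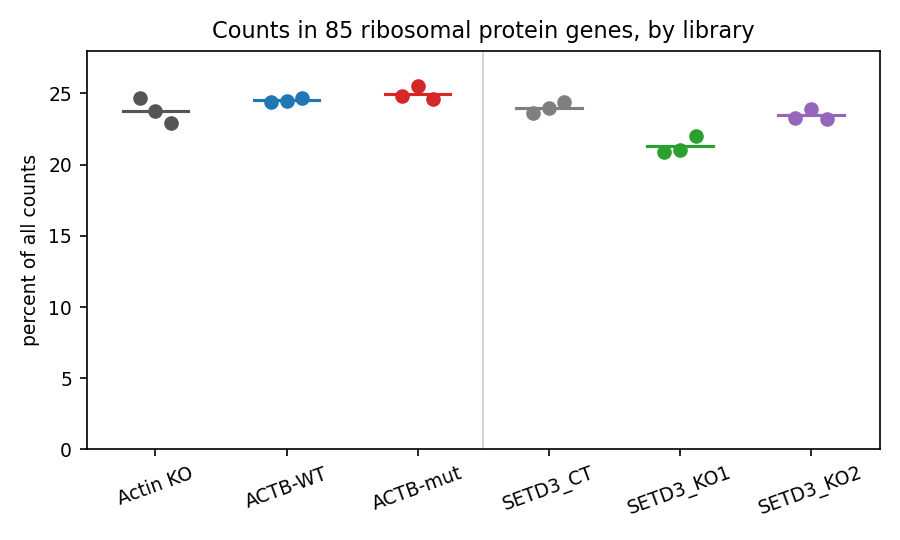
Percent of all counts of a library that fell in the 85 ribosomal protein genes (y axis, from 0) for the 6 groups (x axis); points are libraries and lines are group means. SETD3_KO1 sits between 20.9% and 22.0%, below all other libraries.

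Levels were compared between members per kilobase of transcript (TMM-scaled CPM per kb), and the ranking was limited to the 64 members whose transcript model was at most 1500 bases, a limit chosen after the models were seen. The order was headed in Actin KO by RPS2, a small subunit protein, at 22800 ± 897 CPM per kb (SD, n = 3), RPL41, the smallest ribosomal protein, at 17700 ± 853, and RPS18, a protein of the small subunit head, at 14600 ± 1080. RPS15 at 9920 ± 138 and RPL36 at 9840 ± 315 came next and did not differ beyond their spread. In SETD3_CT, RPS2 stood at 22100 ± 1940, RPL41 at 17600 ± 1390 and RPS18 at 16700 ± 2600, and the last pair overlapped. RPL35 at 11000 ± 1120 and RPL36 at 10100 ± 1770 followed within their spread.

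The lowest of the subunit genes were far from this level although their proteins belong to the same particle. In Actin KO, RPL7 stood at 35.6 ± 22.6 CPM per kb, RPL39 at 55.7 ± 10.1, RPL34 at 67.0 ± 34.9, RPL9 at 90.4 ± 21.7 and RPS27A, which is made as a fusion with ubiquitin, at 96.8 ± 19.4. Neighbours in this run overlapped. The same genes were at the bottom in SETD3_CT, with RPL39 at 45.3 ± 23.9, RPL7 at 48.1 ± 13.0, RPL34 at 60.2 ± 7.91, RPS27A at 96.1 ± 35 and RPL9 at 96.8 ± 20.5.

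The level per kilobase went with base composition. Across the 62 tested members with models of at most 1500 bases, log2 level and transcript GC content had a Pearson r of 0.73 in each table, and log2 level and the log2 number of pseudogene rows had r = -0.31 in the actin table and -0.33 in the SETD3 table. Over all 83 tested members, r with GC content was 0.59 and 0.60, and r with the number of pseudogene rows was 0.05 and 0.03, so the latter relation was present only under the length limit. The 83 include RPL3L, which has almost no counts and which the length limit leaves out. These are correlations across genes that share the same libraries, given as a description. RPL7, RPL39, RPL34 and RPL9 had GC contents of 43.1%, 43.9%, 43.8% and 42.4%, while RPS2 had 59.0%. RPL7 had 61 pseudogene rows, and RPL21, which also ranked low, had 70.

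Processed pseudogenes of 77 members filled 1206 rows and held between 0.733% and 0.952% of the counts of a library. Some of these rows rivalled their parent gene. RPL3P4 averaged 2220 CPM of all counts in the actin table and 1840 in the SETD3 table, more than RPL3 itself at 1650 and 1510. RPS28P7 averaged 1130 and 1190 CPM beside 2180 for RPS28 in each table. Values of RPL3, RPS28 and RPL6, whose RPL6P27 row ranged from 35.1 to 637 CPM, are therefore uncertain, since the authors' counting could divide reads between near-identical copies.

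Paralogues ranged from absent to abundant. RPL10L, a retrocopy of RPL10 known from testis, had no count in any library, where 3 counts would have been 0.248 to 0.955 CPM. RPL39L had a count in 1 library of the actin table (4.03) and none in the SETD3 table. RPL3L, the muscle form of RPL3, had counts in 7 and 6 libraries and reached 3.94 CPM, so its fitted differences, from -2.03 to 2.31 with SE of at least 1.53, are not interpretable.

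Other paralogues were measurable in every library. RPL22L1 ran from 21.3 to 73.0 CPM beside 252 to 425 for RPL22. RPL26L1 ran from 43.2 to 92.5 CPM beside 91.8 to 180 for RPL26, and RPL36AL from 223 to 419 beside 69.3 to 289 for RPL36A. RPL7L1 ran from 123 to 229 CPM and RPS27L, a p53 target, from 4.85 to 24.0. None of the 6 tested paralogues passed the test in any of the 7 comparisons (edgeR, lowest adjusted p 0.20, for RPS27L in ACTB-mut minus Actin KO). Over all genes, 0.0144% to 1.24% were called.

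ACTB-mut was compared with Actin KO, the comparison that asks what the H73A form changes in cells labelled as an actin knockout. Of the 83 members, 7 rose and 0 fell at an adjusted p below 0.05 (edgeR quasi-likelihood test, Benjamini-Hochberg over 13882 genes), where 0.324% of all genes were called higher and 0.598% lower, 0.922% in all. By role the 7 calls were 5 of 43 large subunit genes, 1 of 31 small subunit genes and 1 of 3 stalk genes. At an unadjusted p below 0.05, 27 members were higher and 2 lower, beside 5.09% and 6.41% of all genes. The libraries did not overlap in 17 members with ACTB-mut higher and 4 with it lower, beside 9.31% and 9.16% of all genes. The median log2 difference of members was 0.23, beside 0.03 for all genes and -0.05 for the 1584 genes at 100 CPM or more, and 61 of 83 members lay above 0. The median was 0.23 in the large subunit, 0.22 in the small subunit and 0.07 in the stalk. By the start sequence, it was 0.22 in the 47 tested members with a pyrimidine run and 0.35 in the 20 listed without one. These medians were 0.14 and 0.26 in ACTB-mut minus ACTB-WT, and -0.22 and -0.13 in SETD3_KO1 minus SETD3_CT. A part of the run in the differences was not tested.

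RPL31, a large subunit protein near the exit of the nascent chain tunnel, was at 889, 670 and 518 CPM in Actin KO and 1380, 1420 and 1400 in ACTB-mut. The groups did not overlap, and its log2 difference was 1.02 ± 0.17 (SE, adjusted p = 0.00865). RPS27, a zinc finger protein of the small subunit, was at 125, 164 and 129 CPM in Actin KO and 415, 441 and 205 in ACTB-mut. ACTB-mut replicate 3 stood apart from the rest of its group but still above Actin KO, and the log2 difference was 1.34 ± 0.23 (adjusted p = 0.0119).

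RPL5, which with RPL11 and 5S rRNA forms the particle that binds MDM2, was at 576, 613 and 511 CPM in Actin KO and 851, 767 and 817 in ACTB-mut, a log2 difference of 0.52 ± 0.10 (adjusted p = 0.0231). Its partner RPL11 was at 2630, 2500 and 2240 CPM against 2970, 3060 and 3200, also without overlap, with a log2 difference of 0.32 ± 0.09 that missed the threshold (adjusted p = 0.129). RPL27, a large subunit protein, was at 1020, 1020 and 894 CPM in Actin KO and at 1340, 1330 and 1320 in ACTB-mut, a log2 difference of 0.44 ± 0.09 (adjusted p = 0.0312). The 3 ACTB-mut libraries were nearly equal for this gene.

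RPL23, another protein known to bind MDM2, was at 743, 754 and 586 CPM in Actin KO and 1340, 1040 and 998 in ACTB-mut (log2 difference 0.70 ± 0.15, adjusted p = 0.0376). RPLP0, the core of the ribosomal stalk that recruits elongation factors, was at 6190, 5890 and 5690 CPM against 7900, 7160 and 7270 (0.33 ± 0.07, adjusted p = 0.0486). Its stalk partners RPLP1 and RPLP2 had log2 differences of 0.07 ± 0.08 and -0.11 ± 0.07 and did not pass. RPL41 was at 8750, 8220 and 7970 CPM against 10400, 10300 and 10200 (0.31 ± 0.07, adjusted p = 0.0488).

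**Figure D2:**
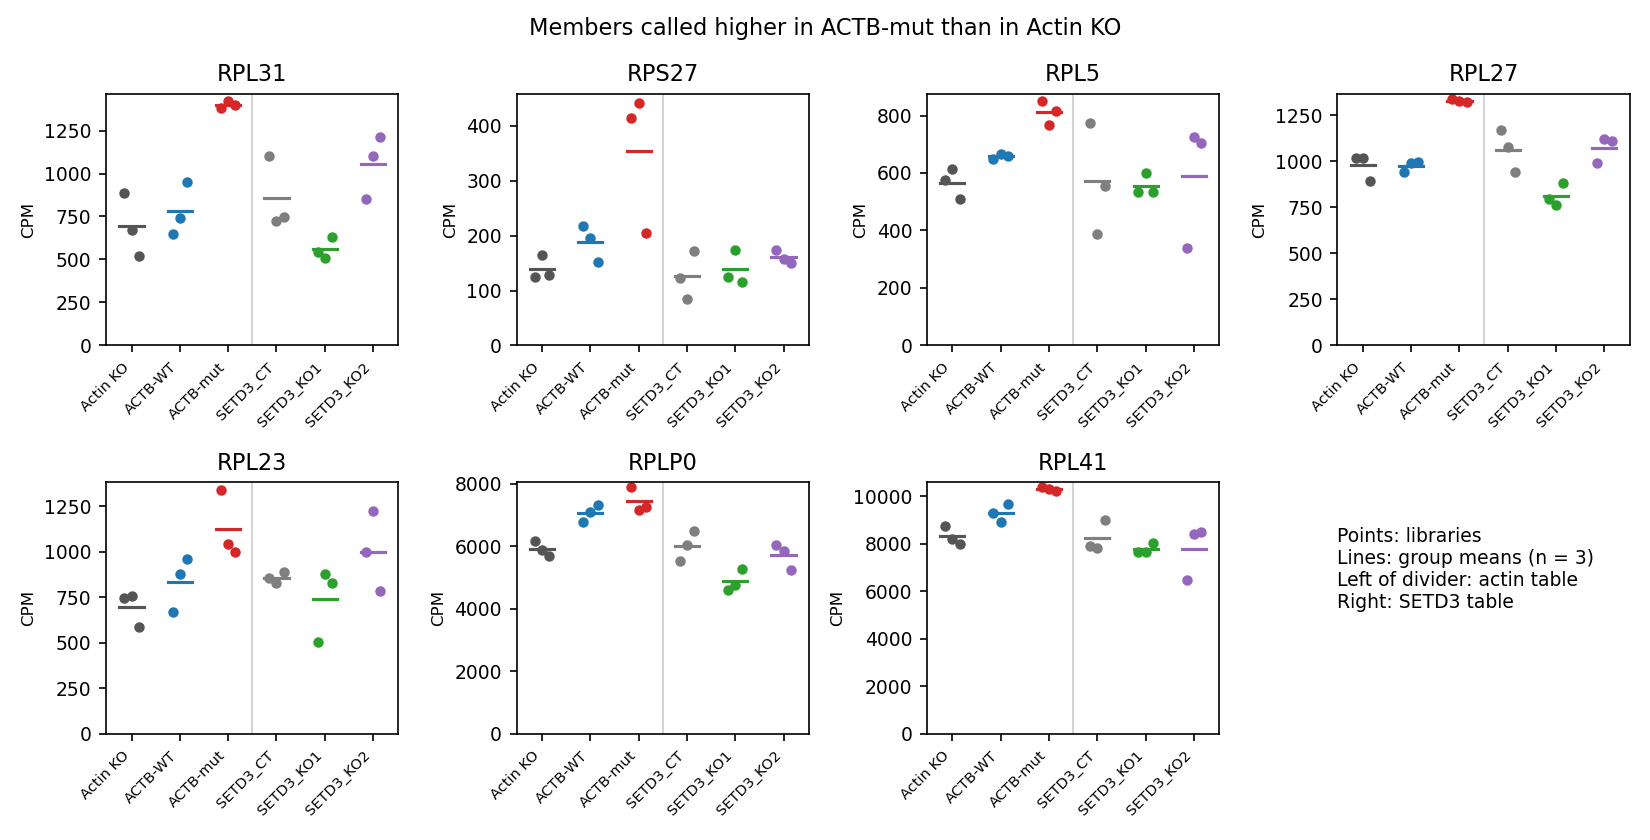
TMM-scaled CPM (y axis, from 0, a scale of its own in each panel) of the 7 members that passed the test in ACTB-mut minus Actin KO, in the 6 groups (x axis); points are libraries, lines are means of 3, and the divider separates the 2 tables, which were normalised separately. RPL31 sits between 1380 and 1420 CPM in ACTB-mut and at 949 or below in the other actin groups.

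RPL31 passed the test when any one library of the table was left out, with adjusted p up to 0.0494. RPS27 passed in 5 of the 9 such fits, RPL5 in 4, RPL23 in 2, RPL27 in 1, and RPLP0 and RPL41 in 0, and the number of members called ranged from 1 to 5. RPL23 and RPL27 passed only without an ACTB-WT library, which lies outside this comparison. Among fits without a compared library, RPL5 passed only without ACTB-mut replicate 2. RPS27 passed there only without Actin KO replicate 2 or ACTB-mut replicate 3.

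The differences in ACTB-mut minus Actin KO went with GC content. Across the 83 members, the log2 difference and GC content had r = -0.52, and over 3828 genes at 32 CPM or more of any kind r was -0.35, so the relation was not limited to the members. All 18 members under 45% GC lay above 0 with a median of 0.39. Of the 47 members from 45% to 55%, 36 lay above 0 with a median of 0.23, and of the 18 at 55% or more, 7 did with a median of -0.03. Log transcript length had r = -0.06 across the 83 members, -0.27 across the 62 with models of at most 1500 bases and -0.21 over the 3828 genes. With smooth terms for GC content and length in each library, the median was 0.05, r with GC content was -0.21, and 1 member, RPL31, passed the test. The part of GC content in the members' differences was not tested beyond these fits.

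**Figure D3:**
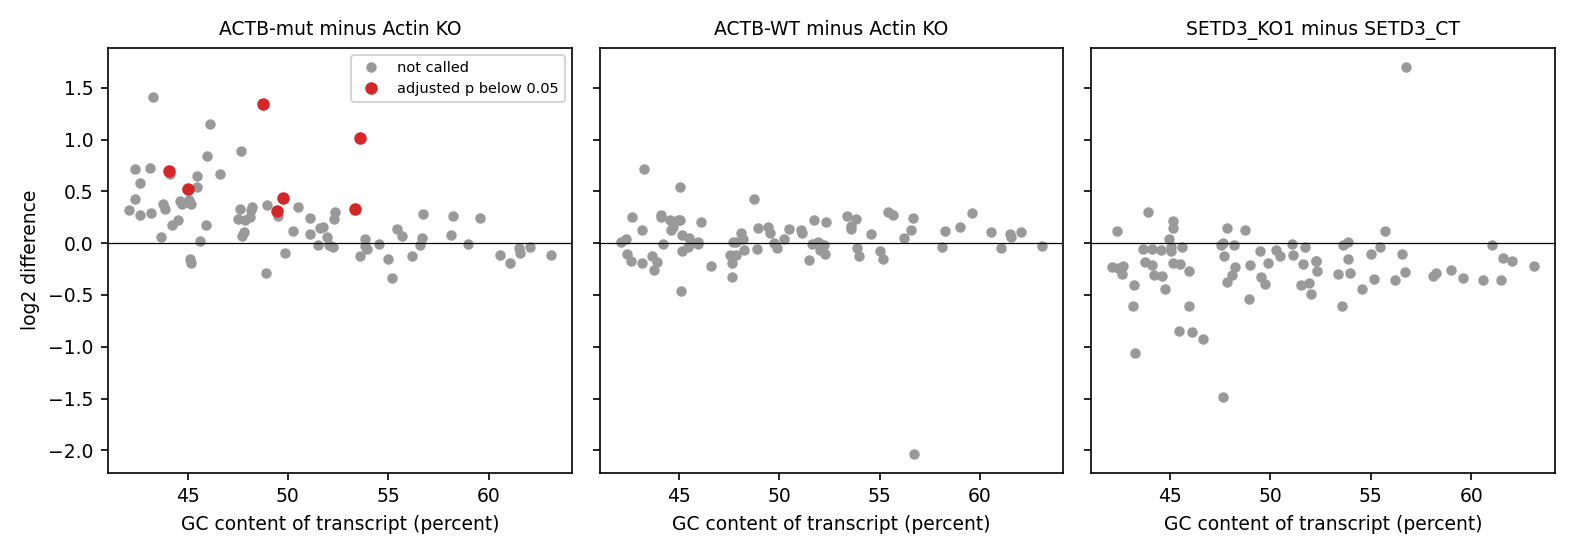
Log2 difference (y axis) against GC content of the transcript in percent (x axis) for the 83 tested members in 3 comparisons; red points have an adjusted p below 0.05. In ACTB-mut minus Actin KO the points fall from left to right (r = -0.52), in the others they do not (r = -0.05 and 0.11), and the isolated points at the bottom of the middle panel and the top of the right panel are RPL3L, which has almost no counts. RPL3L enters each r. Across the 62 members with models of at most 1500 bases, which leave it out, r was -0.56, 0.17 and -0.07.

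Single libraries followed the same axis. The deviation of a library from the mean of its table, across members, had r with GC content of -0.45, -0.29 and -0.40 in the ACTB-mut libraries, -0.15, 0.31 and 0.43 in Actin KO and 0.37, 0.48 and -0.18 in ACTB-WT. In the SETD3 table it was -0.47, 0.37 and 0.20 in SETD3_CT, -0.01, -0.15 and 0.42 in SETD3_KO1 and 0.37, -0.33 and -0.34 in SETD3_KO2. Libraries of a group thus differed in sign in 5 of the 6 groups, and ACTB-mut was the exception.

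ACTB-mut was also set against ACTB-WT, the comparison of the H73A form with wild-type actin. It shares the ACTB-mut libraries with the comparison above, so the values stand side by side and are not independent. Of 83 members, 2 rose and 0 fell (edgeR), where 0.634% of genes were called higher and 0.605% lower, 1.24% in all. At an unadjusted p below 0.05, 17 members were higher and 7 lower, beside 6.01% and 5.99% of all genes, and libraries did not overlap in 17 higher and 5 lower, beside 9.93% and 8.14%. RPL31, at 651, 743 and 949 CPM in ACTB-WT, had a log2 difference of 0.84 ± 0.17 (adjusted p = 0.0211), and RPL27, at 944, 992 and 995 CPM, one of 0.44 ± 0.09 (adjusted p = 0.0268). Neither gene overlapped between the groups. Of the 9 fits that each left out 1 library, RPL31 passed in 4 (adjusted p up to 0.106) and RPL27 in 2 (up to 0.121), and without ACTB-WT replicate 1, ACTB-WT replicate 2 or ACTB-mut replicate 1 there were 0 members called. RPL27 passed only without an Actin KO library, which lies outside this comparison. Among fits without a compared library, RPL31 passed only without ACTB-WT replicate 3.

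The next members by size in that comparison did not pass. RPS4X, the X-linked small subunit gene, had a log2 difference of 1.22 ± 0.65 (adjusted p = 0.545), RPL35A 0.95 ± 0.67 (0.683) and RPS27 0.91 ± 0.23 (0.0758). On the other side, the ACTB-mut libraries had 4610, 4690 and 4850 CPM of RPL19, all below the 5560, 5590 and 5780 of ACTB-WT (-0.26 ± 0.07, adjusted p = 0.103). RPLP2 was also lower in every ACTB-mut library than in every ACTB-WT library (-0.22 ± 0.07, adjusted p = 0.196), and RPS13 overlapped (-0.23 ± 0.19). The median over members was 0.15, 58 of 83 lay above 0, and r with GC content was -0.41. That r includes RPL3L, and across the 62 members with models of at most 1500 bases, which leave it out, r was -0.64. With GC and length terms the median was 0.03, RPL31 and RPL19 passed the test and RPL27 did not.

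ACTB-WT was then compared with Actin KO. The edgeR test called 0 of 83 members, where 1.12% of all genes were called (0.439% higher and 0.677% lower). At that share a count of 0 among 83 says little about the members. At an unadjusted p below 0.05, 9 members were higher and 1 lower, beside 5.05% and 6.18% of all genes. Libraries did not overlap in 11 members with ACTB-WT higher and 2 with it lower, beside 7.64% and 9.08% of all genes. DESeq2 and limma-voom called 1 member each. Over all genes, DESeq2 called 167 higher and 191 lower of 13869, and limma-voom 40 and 49 of 13882. The median was 0.04 and 50 of 83 members lay above 0. RPS20, with a log2 difference of 0.54 ± 0.18 (adjusted p = 0.205), and RPS10, with 0.30 ± 0.09 (0.145), had the largest positive values by the naming rule together with RPS27 (0.43 ± 0.23), and RPL7L1 the largest negative one (-0.46 ± 0.17, adjusted p = 0.27). For RPS10 the ACTB-WT libraries had 2670, 2550 and 2480 CPM, all above the 2100, 2200 and 1960 of Actin KO. RPS4X (-0.33 ± 0.64) and RPL32 (-0.22 ± 0.37) turned to 0.51 and 0.20 when Actin KO replicate 1 was left out.

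In the SETD3 table, members leaned lower in SETD3_KO1 without passing the test. Against SETD3_CT, 72 of 83 members lay below 0 with a median of -0.21, beside -0.02 for all genes and 0.02 for the 1657 genes at 100 CPM or more. The edgeR test called 0 members, where 0.0144% of genes were called. At an unadjusted p below 0.05, 22 members were lower and 0 higher, beside 3.0% and 2.74% of all genes. DESeq2 called 2 members, beside 28 genes higher and 37 lower of 13811, and limma-voom 0, beside 0 and 3 of 13846. The libraries did not overlap, with SETD3_KO1 lower, in 21 members, beside 6.73% of all genes, and with it higher in 0 members, beside 6.47%. The median was -0.19 in the large subunit, -0.26 in the small subunit and -0.30 in the stalk.

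RPL32, a large subunit protein, was at 1860, 1850 and 1080 CPM in SETD3_CT and 705, 813 and 1020 in SETD3_KO1, a log2 difference of -0.92 ± 0.21 (adjusted p = 0.423). RPS4X was at 733, 538 and 217 CPM against 117, 164 and 251 and overlapped (-1.48 ± 0.37, adjusted p = 0.482). RPL35A also overlapped (-0.86 ± 0.37, adjusted p = 0.836). The largest positive values by the naming rule were small: RPL26L1 0.21 ± 0.28, RPL21 0.15 ± 0.21 and RPL7L1 0.15 ± 0.25. RPSA, a small subunit protein also known as the laminin receptor precursor, was at 4140, 4340 and 4140 CPM in SETD3_CT and 3490, 3330 and 3250 in SETD3_KO1 (-0.33 ± 0.13, adjusted p = 0.826). GC content had r = 0.11 with the differences across members, RPL3L among them, and -0.07 across the 62 with models of at most 1500 bases. With GC and length terms the median was -0.15.

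SETD3_KO2 showed no such lean. Its median against SETD3_CT was 0.01, 45 of 83 members lay above 0, and edgeR, DESeq2 and limma-voom each called 0, where edgeR called 0.0578% of all genes (0.0217% higher, 0.0361% lower). DESeq2 called 46 genes higher and 44 lower of 13542, and limma-voom 3 and 5 of 13846. At an unadjusted p below 0.05, 3 members were higher and 2 lower, beside 2.68% and 2.28% of all genes, and libraries did not overlap in 3 higher and 6 lower, beside 4.97% and 5.28%. RPL35A (0.91 ± 0.37), RPL36A (0.49 ± 0.27) and RPL37A (0.42 ± 0.14) had the largest positive values, and RPS24 (-0.40 ± 0.22), RPS15A (-0.32 ± 0.19) and RPL9 (-0.30 ± 0.37) the largest negative ones among members at 50 CPM or more. Both lines are compared with the same 3 control libraries.

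The 2 knockout lines were set against each other directly. In SETD3_KO2 minus SETD3_KO1 the median was 0.19, 69 of 83 members lay above 0, and edgeR called 0, where 0.0289% of genes were called. At an unadjusted p below 0.05, 15 members were higher and 0 lower, beside 2.72% and 2.12% of all genes. DESeq2 called 7 members, beside 37 genes higher and 19 lower of 13811, and limma-voom 2, beside 8 and 1 of 13846. Libraries did not overlap in 20 members with SETD3_KO2 higher and 1 with it lower, beside 6.16% and 5.76% of all genes. RPS4X was at 616, 615 and 750 CPM in SETD3_KO2 (1.90 ± 0.38, adjusted p = 0.198), RPL35A at 293, 575 and 478 against 73.4, 155 and 166 (1.77 ± 0.37, 0.241) and RPL36A at 193, 288 and 289 against 79.0, 107 and 119 (1.34 ± 0.28, 0.223). None of the 3 overlapped between the lines. RPL37A, named here after its value was seen, had the smallest adjusted p, 0.0935, at 0.86 ± 0.14. The lowest values by the naming rule were RPS24 (-0.41 ± 0.22), RPS15A (-0.30 ± 0.19) and RPL21 (-0.15 ± 0.21).

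The mean of both knockout lines against SETD3_CT had a median of -0.10 with 64 of 83 members below 0. The edgeR test called 0 members, where 0.0433% of genes were called (0.00722% higher, 0.0361% lower), and DESeq2 and limma-voom called 0. Over all genes, DESeq2 called 59 higher and 33 lower of 13542, and limma-voom 0 and 6 of 13846. At an unadjusted p below 0.05, 0 members were higher and 5 lower, beside 2.82% and 2.87% of all genes, and libraries did not overlap in 0 higher and 3 lower, beside 1.6% and 1.67%. RPS4X (-0.54 ± 0.31), RPS18 (-0.35 ± 0.14) and RPL32 (-0.34 ± 0.18) had the lowest values among members at 50 CPM or more, and RPS27 (0.24 ± 0.23), RPL36AL (0.22 ± 0.18) and RPL26L1 (0.19 ± 0.24) the highest. For RPL35A the fitted values of the 2 lines had opposite signs, and neither passed the test.

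**Figure D4:**
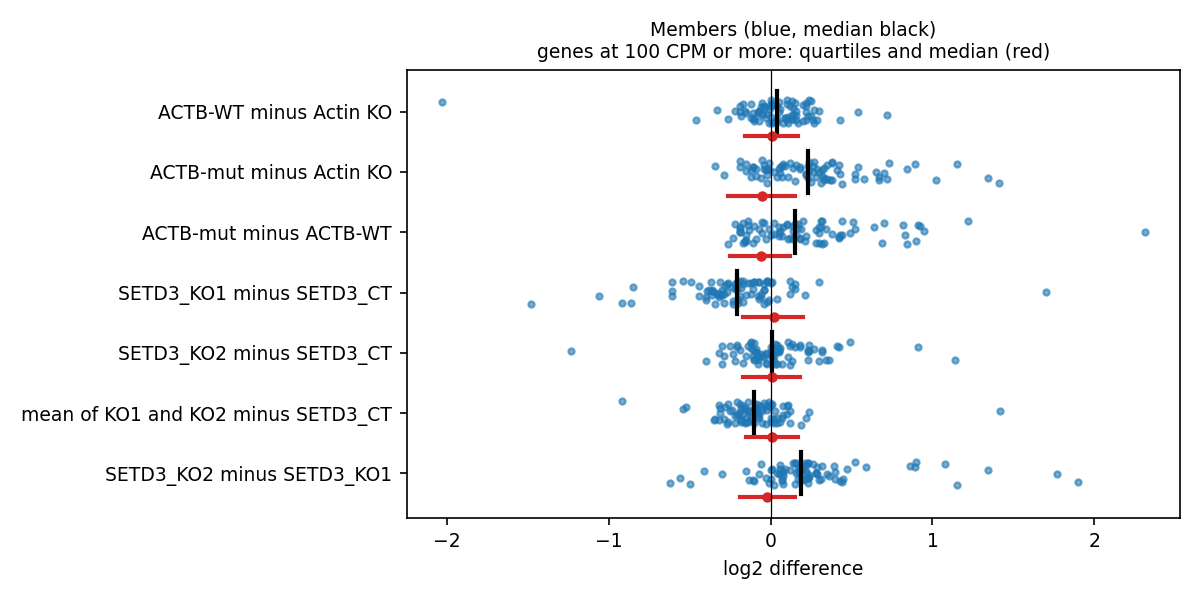
Log2 differences (x axis) of the 83 tested members in the 7 comparisons (y axis), with the member median in black; the red bar below each row gives the quartiles and median of all genes at 100 CPM or more. Member medians run from -0.21 in SETD3_KO1 minus SETD3_CT to 0.23 in ACTB-mut minus Actin KO, and the isolated points beyond -2 and 2 are RPL3L.

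Some members varied more between libraries of one group than between groups. The Actin KO libraries had 622, 221 and 145 CPM of RPS4X and the ACTB-WT libraries 164, 176 and 446, while its 3 ACTB-mut libraries were at 575, 722 and 537. RPL35A, whose loss is known from Diamond-Blackfan anaemia, had 307, 142 and 62.9 CPM in the Actin KO libraries, 100, 146 and 341 in the ACTB-WT libraries, and spanned 9.14-fold over all 18 libraries. RPL36A was at 225, 91.6 and 69.3 CPM and 78.7, 112 and 183 in the same groups. In all 3 genes Actin KO replicate 1 and ACTB-WT replicate 3 were the highest of their groups and lay nearest to the ACTB-mut libraries.

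The libraries that were low were the same ones from gene to gene. In the actin table, RPS4X was lowest in Actin KO replicates 2 and 3 and ACTB-WT replicates 1 and 2, and 15 of 83 members (18.1%) had these same 4 lowest libraries, beside 1.58% of all genes. In the SETD3 table it was lowest in SETD3_CT replicate 3 and the 3 SETD3_KO1 libraries, shared by 9 of 83 members (10.8%) and 1.14% of all genes. In each of the tables at once, 14 of 13028 genes shared them, and 6 of the 14 were members: RPS4X, RPL32, RPL35A, RPL36A, RPL37 and RPL37A. The others were AC116533.1, CALM2, CCT2, CLTC, CPSF3, IPO5, PPP4R1 and ZFAS1. These genes were picked by this pattern, so the counts are a description with no test.

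What the 6 members have in common beyond this was limited. They come from 4 chromosomes, with RPS4X and RPL36A on X, RPL35A and RPL32 on 3, RPL37A on 2 and RPL37 on 5. Their GC contents lie from 43.2% to 47.6%, within the lower part of the members' range of 42.1% to 63.1%. The starts printed above open with a pyrimidine run in RPL35A, RPL36A and RPL37A but not in RPS4X, and those of RPL32 and RPL37 are not shown. The pseudogene rows of RPS4X summed to at most 2.83 CPM of all counts in any library, those of RPL35A to at most 0.731, those of RPL37A to at most 0.194, those of RPL32 to at most 16.5 and those of RPL37 to at most 17.5. For RPL36A they summed to 6.53 to 28.6 CPM over the 18 libraries, on average 9.6% of the gene's own level in the actin table and 9.5% in the SETD3 table. In the actin table the low libraries were those in which r with GC content over all 3828 genes was positive (0.11, 0.35, 0.21 and 0.16), and in the others it was -0.38 to -0.01. In the SETD3 table r was -0.08, -0.03, -0.39 and 0.26 in the low libraries and -0.46, 0.46, 0.47, -0.32 and -0.48 in the others. The part of base composition in this pattern was not tested.

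**Figure D5:**
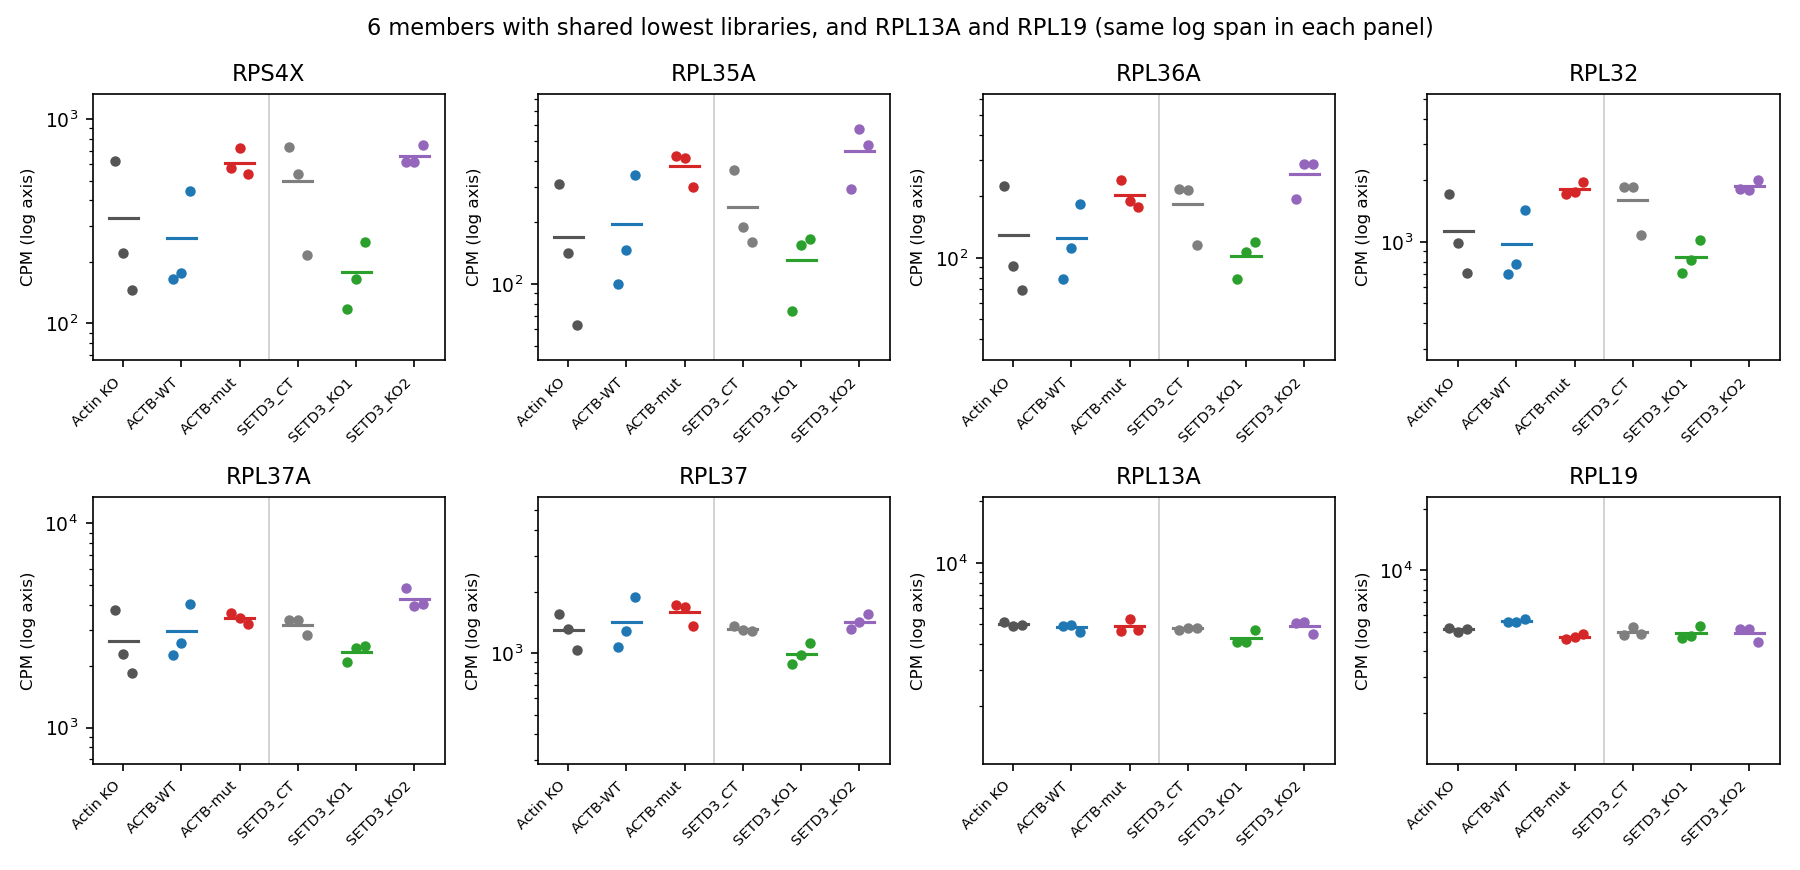
TMM-scaled CPM on a log axis (y axis, the same fold span in each panel) in the 6 groups (x axis) for the 6 members with shared lowest libraries and for RPL13A and RPL19; points are libraries and lines are means of 3. RPS4X runs from 117 to 750 CPM, and RPL13A from 4100 to 5330.

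Other members were steady. RPL19 and RPL13A, large subunit proteins, each differed by 1.30-fold between the highest and the lowest of the 18 libraries. The median SD of log2 level within groups was 0.11 over the 53 members at 1000 CPM or more in the actin table, beside 0.15 for the 82 other genes at that level, and 0.17 over 50 members beside 0.22 for 85 genes in the SETD3 table. At the other end, RPL7 had an SD of 0.99 in the actin table and ran from 12.5 to 104 CPM over all libraries.

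RPS6, the small subunit protein phosphorylated by S6 kinases, had a within-group SD of 0.17 in the actin table and 0.50 in the SETD3 table. Actin KO libraries had 1020, 887 and 752 CPM, ACTB-WT libraries 810, 749 and 814, and ACTB-mut libraries 922, 1130 and 1170. The log2 difference of 0.44 ± 0.12 between ACTB-mut and ACTB-WT did not pass (adjusted p = 0.117). In the SETD3 table it was at 1300, 835 and 551 in SETD3_CT, and its 446, 955 and 894 in SETD3_KO2 overlapped the control.

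Lists of genes that work with the ribosomal proteins were counted in the same way. Of 14 chaperones and assembly partners, such as GRWD1, TSR2 and LTV1, 0 were called in any comparison, and of 17 regulators, among them MYC, LARP1 and MTOR, also 0 of those tested. Over all genes, 0.922% to 1.24% were called in the actin comparisons and 0.0144% to 0.0578% in the SETD3 ones. At those shares a count of 0 in lists this short says little about their genes.

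Of 32 other TOP mRNAs, 1 rose and 0 fell in ACTB-mut minus Actin KO, EEF1B2, a translation elongation factor subunit (0.63 ± 0.11, adjusted p = 0.0153), where 0.324% of all genes were called higher and 0.598% lower. The list's median was 0.13, beside 0.03 for all genes. EEF1A1, the elongation factor that carries aminoacyl-tRNA to the ribosome, rose in ACTB-mut minus ACTB-WT (1.23 ± 0.21, adjusted p = 0.0138), from 1410, 1070 and 1750 CPM to 2910, 3250 and 3730. VIM was the other call there and the single call of the list in ACTB-WT minus Actin KO: it was listed at 0 in all 3 ACTB-WT libraries, at 6.63, 3.07 and 7.53 CPM in Actin KO and at 7.35, 1.80 and 10.3 in ACTB-mut. Over all genes, 0.634% were called higher in ACTB-mut minus ACTB-WT and 0.677% lower in ACTB-WT minus Actin KO. For the SETD3 libraries, 0 of the 30 tested were called, beside 0.0144% to 0.0578% of all genes, with medians from -0.05 to 0.00.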

How the data were processed

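Each of the 2 deposited tables holds expected counts by gene from RSEM, with no normalisation. Per the submitters' processing notes, the authors used Trim Galore 0.4.5, cutadapt 1.15, RSEM 1.2.28 and Bowtie2 on GRCh38; the annotation release and strand setting are not given in the sources used here. Counts were rounded. The tables were fitted separately, each with its 3 groups, in edgeR 4.0.16 (R 4.3.3): filterByExpr, TMM, robust quasi-likelihood F tests, two-sided, Benjamini-Hochberg over all tested genes, a call at an adjusted p below 0.05. SE is the absolute log2 difference over the square root of F. Levels are TMM-scaled CPM. DESeq2 1.42.0 and limma-voom 3.58.1 were alternatives. The edgeR function was tested on simulated data. GC content and length are those of the principal protein-coding transcript in GENCODE 29, and starts from RefSeq GRCh38.p14. Some models are long (up to 7686 bases).

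Named members were every call up to 12 per comparison and, with fewer than 4 calls, the 3 largest rises and falls among members at 50 CPM or more, plus a set of stalk, 5S particle and paralogue genes, RPS6, RPSA and the highest and lowest per length. The members, lists and tests were chosen with earlier results of these data known. Results for some members and related genes are not reported here.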

Additional observations from a re-analysis of the deposited data

Results flagged for a closer look

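The levels of 2 members differed between ACTB-mut and ACTB-WT in the edgeR fit, by a direct test of that difference. RPL31 had a log2 difference of 0.84 between ACTB-mut and ACTB-WT, and RPL27 one of 0.44, each with ACTB-mut higher in 3 of 3 libraries than any ACTB-WT library. Neither call was stable: of the 9 fits that each left out 1 library, RPL31 passed in 4 and RPL27 in 2. When the library left out belonged to a compared group, RPL31 passed only without ACTB-WT replicate 3 and RPL27 never. With the replicate block 0 members passed, and with GC and length offsets RPL27 did not pass.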

How the results depend on the processing

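Member counts depended on the tool and filter, as did the calls over all genes. In ACTB-mut minus Actin KO the 7 calls became 14 with no filter on low counts, 11 with DESeq2 (10 higher, 1 lower), 13 with limma-voom (12 higher, 1 lower), 2 with only the groups compared and 1 with GC and length offsets, and the median fell from 0.23 to 0.05 with the offsets. Over all genes, no filter called 144 higher and 227 lower of 24491, DESeq2 114 and 251 of 7959 and limma-voom 62 and 119 of 13882. Only the groups compared called 22 and 64 of 13051, and the offsets 38 and 54 of 13882. In ACTB-mut minus ACTB-WT the 2 calls became 14, 7, 6 and 1 with no filter, DESeq2, limma-voom and only the groups compared, and the median of 0.15 became 0.03 with the offsets. Over all genes these settings, in that order, called 204 higher and 198 lower of 24491, 198 and 248 of 13869, 64 and 91 of 13882, and 54 and 50 of 12814. In ACTB-WT minus Actin KO no filter, DESeq2 and limma-voom each gave 1 call in place of 0. Over all genes they called 129 higher and 191 lower of 24491, 167 and 191 of 13869, and 40 and 49 of 13882. In SETD3_KO1 minus SETD3_CT no filter and DESeq2 each gave 2, in SETD3_KO2 minus SETD3_CT no filter gave 1, and in SETD3_KO2 minus SETD3_KO1 no filter and DESeq2 each gave 7 and limma-voom 2, while its median of 0.19 became 0.12 with the offsets. Over all genes in SETD3_KO1 minus SETD3_CT, no filter called 23 higher and 35 lower of 24426, and DESeq2 28 and 37 of 13811. In SETD3_KO2 minus SETD3_CT no filter called 36 and 32 of 24426. In SETD3_KO2 minus SETD3_KO1 no filter called 40 and 18 of 24426, DESeq2 37 and 19 of 13811, and limma-voom 8 and 1 of 13846. The cause was not tested.

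A pairing by replicate number was not seen: correlations of deviations between same-numbered libraries ran from -0.16 to 0.13 in the actin table and from -0.57 to 0.24 in the SETD3 table. Only same-numbered libraries were correlated, so these values cannot exclude a pairing. With the replicate block the calls in ACTB-mut minus Actin KO fell to 2 and in ACTB-mut minus ACTB-WT to 0, and the replicate block with GC and length offsets gave 0 in each, with medians of 0.07 and 0.03, and a median of 0.11 in SETD3_KO2 minus SETD3_KO1. Over all 13882 genes the replicate block called 27 higher and 58 lower in the first comparison and 47 and 36 in the second. With the offsets added these were 16 and 23, and 49 and 25.

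Leaving out each library in turn gave 0 to 1 calls and medians from -0.02 to 0.12 in ACTB-WT minus Actin KO, 1 to 5 calls and 0.14 to 0.28 in ACTB-mut minus Actin KO, 0 to 3 calls and 0.11 to 0.16 in ACTB-mut minus ACTB-WT, and 0 calls in every SETD3 comparison, with medians from -0.26 to -0.16 (SETD3_KO1), -0.04 to 0.05 (SETD3_KO2), -0.12 to -0.07 (their mean) and 0.15 to 0.27 (SETD3_KO2 minus SETD3_KO1). Without Actin KO replicate 1, RPS4X and RPL32 in ACTB-WT minus Actin KO turned to 0.51 and 0.20 (lowest -0.96 and -0.62 without ACTB-WT replicate 3). RPL7L1 in SETD3_KO1 minus SETD3_CT turned to -0.04 without SETD3_KO1 replicate 2 (highest 0.32 without SETD3_CT replicate 1), and RPL9 in SETD3_KO2 minus SETD3_CT to 0.06 without SETD3_KO2 replicate 1 (lowest -0.52 without SETD3_KO2 replicate 3).

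With pseudogene rows added, the mean share of counts moved beyond the spread of replicates to 25.3% in ACTB-WT, 25.8% in ACTB-mut, 24.9% in SETD3_CT, 22.2% in SETD3_KO1 and 24.3% in SETD3_KO2, and without mitochondrially encoded transcripts to 24.7% in ACTB-WT. Over members with models of at most 1500 bases, a limit chosen after seeing the data, r with GC content moved to 0.17 (ACTB-WT minus Actin KO), -0.64 (ACTB-mut minus ACTB-WT), -0.07 (SETD3_KO1 minus SETD3_CT), -0.09 (mean of the lines) and 0.00 (SETD3_KO2 minus SETD3_KO1). Among the members that this limit leaves out is RPL3L, with a model of 2182 bases and almost no counts. Members that averaged under about 50 CPM, such as RPL39, RPL7 and RPS27L, rest on fewer counts than most members. The part of depth in their spread was not tested. The RPL7P9 pseudogene row ran from 0 to 51.5 CPM of all counts in the actin table and from 0 to 82.1 in the SETD3 table. RPL7 itself averaged 46.1 and 36.7.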
